A study of Macaca mulatta with 22 samples.

Results

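The inhibin, activin and AMH system comprises the hormone genes INHA, INHBA and INHBB, the activin antagonist FST, the hormone gene AMH and its receptor gene AMHR2. Every probe set with 1 of these 6 symbols as its single platform gene symbol was taken, which gave 10 of 52766 probe sets and 6 of 14132 genes with such a symbol. INHA, AMH and AMHR2 had 1 probe set each, INHBA and INHBB had 2 each, and FST had 3. All 6 genes were on the array, and they are described in single ovulatory follicles of female rhesus macaques (Macaca mulatta).

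Inhibins and activins are dimers built from shared subunits. The alpha subunit, encoded by INHA, joins a beta subunit to form an inhibin, which lowers FSH secretion by the pituitary, while a pair of beta subunits, encoded by INHBA or INHBB, forms an activin. Follistatin, encoded by FST, binds activins and keeps them from their receptors. Anti-Müllerian hormone (AMH) is made by granulosa cells of growing follicles, in larger follicles most of all by those near the oocyte, and signals through its own type II receptor, AMHR2.

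All females received the GnRH antagonist Acyline together with recombinant human FSH and LH, 30 IU of each, once serum estradiol had risen. The 0 h follicles (n = 6) were taken without hCG, a hormone that acts on the LH receptor and sets off ovulation. The others were taken after 1000 IU of recombinant hCG, at 12 h (n = 4), 24 h (n = 4) and 36 h, where 4 follicles had not ruptured and 4 had. Titles name ovulatory follicles, whereas most descriptions name the corpus luteum that follows, and neither animal ages nor a separate animal for each array are stated. The p-values therefore measure the spread between these follicles.

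Levels are log2 intensities of Affymetrix arrays, on which a step of 1 is a 2-fold change. Array medians lay between 26.2 and 26.7 on the linear scale, and the number of arrays limits the precision. No detection calls came with the values, so no probe set can be placed above or below background, and levels of different probe sets are not compared. Each change comes with the standard error (SE) of the fit and limma's p-value after Benjamini-Hochberg adjustment over all probe sets, and "called" means an adjusted p under 0.05. A whole follicle holds several cell types, so fewer cells of a type and less RNA per cell cannot be told apart. Granulosa markers, of which 6 of 10 were measured, had a summed intensity of 10300 to 17300 at 0 h, 7600 to 10800 at 12 h, 6630 to 8480 at 24 h, 6440 to 7450 in unruptured and 6080 to 8190 in ruptured follicles. Such a sum weighs the brightest markers most, here SERPINE2 (mean log2 13.03 at 0 h) and then CYP19A1 (11.34). The defining markers FSHR and FOXL2 were not analysed here. Macrophage and monocyte markers, 7 of 9 measured, summed to between 998 and 1750 at 0 h, 1480 and 4630 at 12 h, 1650 and 3260 at 24 h, 1390 and 2270 in unruptured and 1290 and 2630 in ruptured follicles.

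Across the 5 groups, the activin A subunit INHBA varied most clearly, with AMHR2, INHBB and INHA also passing the F test. INHBA was lower at 24 h than at 12 h and higher in ruptured than in unruptured follicles. INHBB and AMHR2 were lower at 12 h than at 0 h. FST and AMH did not pass the F test. Over the 5 groups, 5 of the 10 member probe sets were called, against 20.1% of all probe sets.

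**Figure D1:**
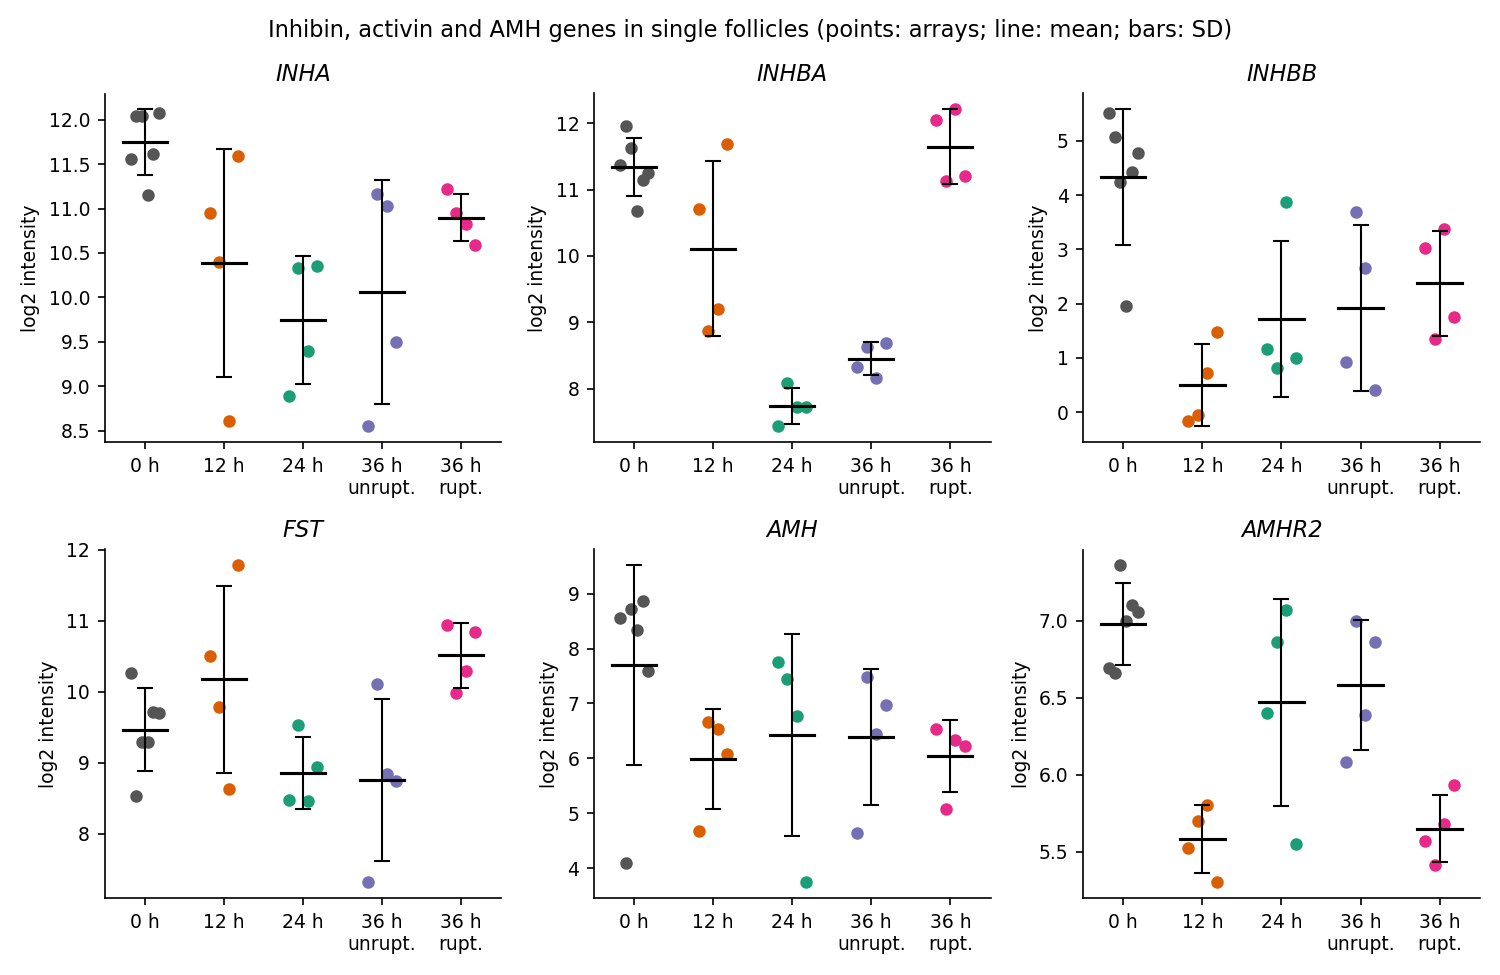
Log2 intensity (vertical axis) of the brightest probe set of each gene in the 5 groups (horizontal axis), with 1 point per array, a line at the group mean and bars of 1 SD. INHBA ran from 7.43 to 8.08 at 24 h and from 11.13 to 12.21 in ruptured follicles, and AMHR2 at 12 h lay below all 0 h follicles.

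The question of the first comparison is what the members did in the first 12 h after hCG. INHBB and AMHR2 fell, and no member rose. This was 2 of 10 probe sets called, against 9.33% of all probe sets (2259 higher and 2663 lower). Granulosa markers moved with this comparison, with 4 of the 6 measured lower at 12 h, and so did macrophage and monocyte markers, with 4 of 7 higher. Theca markers moved as well, with 3 of 6 lower and sums of 9410 to 12500 at 0 h and 6420 to 7950 at 12 h. These 3 were CYP17A1 (log2 -1.89), HHIP (-1.16) and OGN (-1.14). GLI1 (-0.8) was not called, and DCN (-0.05) and PTCH1 (-0.03) stayed level. The theca sum weighs DCN and CYP17A1 most (means 12.3 and 12.05 at 0 h), so its fall is mostly that of CYP17A1. Of the smooth muscle markers 1 of 3 was higher. The part of these markers in the members' changes was not tested.

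Between 12 and 24 h INHBA was the only gene called, and it was lower in both of its probe sets. These were the 2 of 10 called, against 6.88% of all probe sets. From 24 h to unruptured follicles at 36 h, none of the 10 was called, against 0.00379% of all probe sets (2 probe sets), and 1 of the 10 had an unadjusted p under 0.05. That was the dimmer INHBB probe set, which read 2.44-fold lower (adjusted p = 0.597, limma).

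Of the members, INHBA was called higher and AMHR2 lower in ruptured than in unruptured follicles of the same hour. These were 3 of 10 probe sets, against 9.82% of all probe sets. With follicles before hCG as the base, 3 of 10 were lower at 24 h (3.36% of all probe sets called), 2 were lower in unruptured follicles (4.72%) and 1 was lower in ruptured follicles (15.8%). These 3 comparisons share the 0 h arrays.

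Comparisons added after the values were seen set unruptured follicles against 12 h, where 3 of 10 were called (9.82% of all probe sets). They also set ruptured follicles against 12 h, where 0 were called (1.6%, limma, with 2 of 10 at an unadjusted p under 0.05), and against 24 h, where 3 were called (9.31%). With so few members, these shares describe the 6 genes and say nothing more general.

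**Figure D2:**
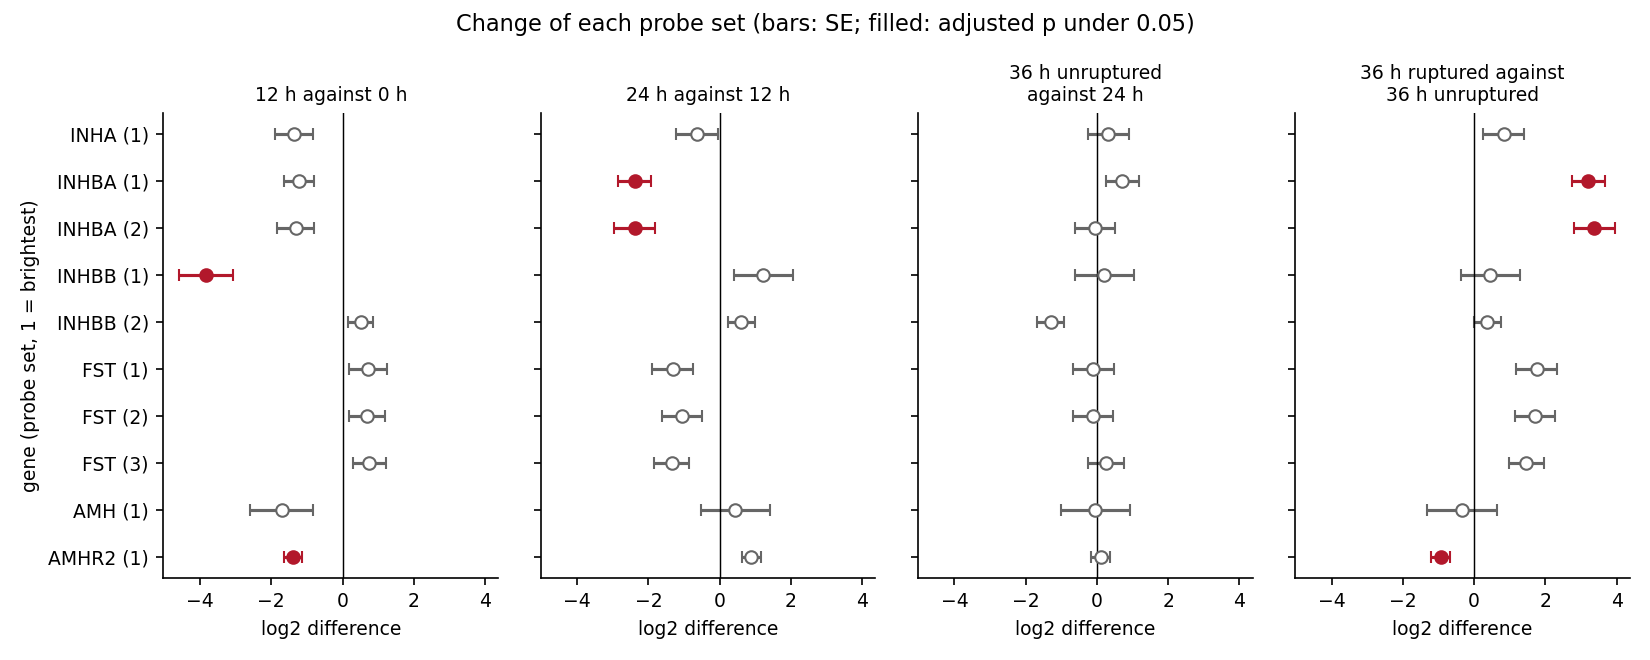
Log2 difference (horizontal axis) of each of the 10 member probe sets (vertical axis, numbered from the brightest within a gene) in the 4 successive comparisons, with bars of 1 SE and filled points where the adjusted p was under 0.05. Both INHBA probe sets fell by 2.38 and 2.39 from 12 to 24 h and were 3.20 and 3.37 higher in ruptured than in unruptured follicles.

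INHA encodes the alpha subunit found in every inhibin. In the 6 follicles at 0 h its probe set ran from 11.15 to 12.07, with a median of 11.82. At 12 h the 4 follicles read 10.95, 10.40, 8.61 and 11.59, and at 24 h 8.89, 10.33, 9.40 and 10.35. The 24 h follicles all lay below the 0 h follicles, whereas at 12 h the highest follicle lay among them. Unruptured follicles read 8.55, 11.16, 11.03 and 9.50, a range that takes in 3 of the 4 ruptured follicles, at 11.22, 10.95, 10.83 and 10.59.

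The group means of INHA were 11.74 ± 0.37 (SD, n = 6) at 0 h, 10.39 ± 1.28 (n = 4) at 12 h, 9.74 ± 0.72 (n = 4) at 24 h, 10.06 ± 1.26 (n = 4) in unruptured and 10.89 ± 0.26 (n = 4) in ruptured follicles. The gene passed the F test (limma, adjusted p = 0.0457). The 24 h level was 4.00-fold below that at 0 h (log2 -2.0 ± 0.53 SE, limma, adjusted p = 0.0411). That call was lost when any of 9 of the 10 follicles compared was left out, 0 h replicate 4 being the exception, with an adjusted p of up to 0.146 (limma). The 12 h level lay 2.56-fold below 0 h but was not called (log2 -1.36 ± 0.53 SE, limma, adjusted p = 0.123), and without 12 h replicate 3 the difference was -0.76. In ruptured follicles the level lay between that of the 24 h and that of the 0 h follicles, and it was called against neither (adjusted p = 0.252 and 0.331, limma). All ruptured follicles lay above all 24 h follicles, while 15.1% of all probe sets had ranges without overlap in that comparison. With ruptured and 0 h follicles fitted alone, their difference of -0.85 was called (adjusted p = 0.0349, limma).

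The spread of INHA within 12 h ran opposite to the macrophage and monocyte markers. The log2 of their summed intensity was 11.36, 11.79, 12.18 and 10.53 in replicates 1 to 4, so the follicle with the highest marker sum, replicate 3, had the lowest INHA and replicate 4 had the lowest sum and the highest INHA. Replicate 3 also had the highest 3' minus 5' index, a measure of RNA quality from the control probe sets, at 0.333. Whether either bears on INHA was not tested.

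INHBA encodes the beta A subunit of activin A and inhibin A. Its brighter probe set ran from 10.67 to 11.96 at 0 h, with a median of 11.31. At 12 h it read 10.70, 8.86, 9.20 and 11.68, and at 24 h 7.43, 8.08, 7.72 and 7.72. The 12 h follicles were split, with replicates 1 and 4 within the range of 0 h and replicates 2 and 3 below it, while all 24 h follicles lay below all 12 h follicles. Unruptured follicles read 8.33, 8.63, 8.16 and 8.68, and ruptured ones 12.05, 11.13, 12.21 and 11.20. No unruptured follicle came near a ruptured one, and the ruptured follicles overlapped those at 0 h.

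The means of INHBA were 11.34 ± 0.44 (SD, n = 6) at 0 h, 10.11 ± 1.32 (n = 4) at 12 h, 7.74 ± 0.27 (n = 4) at 24 h, 8.45 ± 0.25 (n = 4) in unruptured and 11.65 ± 0.56 (n = 4) in ruptured follicles (F test, limma, adjusted p = 1.18e-05). From 12 to 24 h the level fell 5.19-fold (log2 -2.38 ± 0.46 SE, limma, adjusted p = 0.00374). Fitted on these 2 groups alone, where the wide spread at 12 h counts for more, the same difference had an adjusted p of 0.115 (limma). Against 0 h, the 24 h level was 12.1-fold lower (log2 -3.60 ± 0.42 SE, limma, adjusted p = 8e-05) and the unruptured level 7.40-fold lower (adjusted p = 0.000545, limma).

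The call between 12 h and 0 h changed with the setting and with 1 follicle. Over all 4 follicles it was -1.22 ± 0.42 SE (log2) and not called (limma, adjusted p = 0.0738), and without 12 h replicate 4 it was -1.75 with an adjusted p of 0.0059. With all follicles kept it was also called with 16 added before log2 (adjusted p = 0.0442, limma), with dim probe sets left out (0.0297) and with array weights (0.0422). Replicate 4 had the highest INHA, INHBA and FST of its group and the lowest macrophage and monocyte marker sum.

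Ruptured follicles had 9.18-fold more INHBA signal than unruptured ones (log2 3.20 ± 0.46 SE, limma, adjusted p = 0.000245) and 15-fold more than those at 24 h (adjusted p = 4.11e-05, limma). Against 0 h the difference was 0.31 ± 0.42 SE (log2) and not called (limma, adjusted p = 0.707), and the dimmer probe set gave -0.38 ± 0.52 SE. By the brighter probe set the order of the 5 levels was ruptured, 0 h, 12 h, unruptured and 24 h. Of the neighbours in it, ruptured and 0 h, 0 h and 12 h, and unruptured and 24 h were not called, although the ranges of the last pair did not overlap. Unruptured and 12 h were called (log2 -1.66, adjusted p = 0.0243, limma), but the call was lost without 12 h replicate 1 or 4 or unruptured replicate 1 or 3, with an adjusted p of up to 0.0832.

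The dimmer INHBA probe set had means of 10.08, 8.77, 6.38, 6.33 and 9.70 in the 5 groups, in the order from 0 h to ruptured follicles. It was 5.23-fold lower at 24 h than at 12 h (adjusted p = 0.0146, limma, and 0.0537 without 12 h replicate 1) and 10.3-fold higher in ruptured than in unruptured follicles (adjusted p = 0.000897, limma). From 24 h to unruptured follicles the difference was 0.71 in the brighter probe set, with ranges that did not overlap, and -0.05 in the dimmer. Neither was called (adjusted p = 0.857 and 0.998, limma). By the brightest probe set of each granulosa marker, 0 of 6 were called between ruptured and unruptured follicles (limma) and 2 of 6 had an unadjusted p under 0.05. NR5A2 read 1.46 ± 0.51 SE and CYP19A1 1.44 ± 0.66 SE higher in ruptured follicles (adjusted p = 0.0787 and 0.198, limma), and NR5A2 was called with 16 added before log2 (0.0472), with dim probe sets left out (0.0323) and without unruptured replicate 2 (0.032). The 3 probe sets of NR5A2 read 1.44 to 1.56 higher, and 1 of the dimmer ones was called in the main fit.

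INHBB encodes the beta B subunit of activin B and inhibin B. Both of its probe sets were dim, with means over the arrays at percentiles 16 and 6.96 of all probe sets, so that the size of a change is uncertain. The brighter ran from 1.95 to 5.51 at 0 h, with a median of 4.60, and read -0.16, -0.05, 0.72 and 1.47 at 12 h. No 12 h follicle reached the lowest at 0 h. Later follicles were spread, with 1.17, 0.82, 3.87 and 1.00 at 24 h. Unruptured ones read 0.92, 3.69, 2.66 and 0.41, and ruptured ones 3.02, 1.35, 3.37 and 1.76, so these groups overlapped.

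Before hCG the mean of this probe set was 4.33 ± 1.25 (SD, n = 6), and 12 h later it was 0.50 ± 0.76 (n = 4). The 24 h, unruptured and ruptured follicles followed with 1.71 ± 1.44, 1.92 ± 1.52 and 2.38 ± 0.97 (n = 4 each; F test, limma, adjusted p = 0.0101). The fall to 12 h was 14.3-fold (log2 -3.84 ± 0.76 SE, limma, adjusted p = 0.00318). With 16 added to the intensities before taking log2, which damps dim values, it was -1.15 on that scale and still called (adjusted p = 0.00215). The differences of these later groups from 0 h, -2.62, -2.41 and -1.96, were not called (adjusted p = 0.0668, 0.0791 and 0.0935, limma). Each of these passed with 16 added (-0.92, -0.88 and -0.83 on that scale, adjusted p = 0.0228, 0.0251 and 0.0142, limma) and without 0 h replicate 4, the lowest of its group.

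The dimmer INHBB probe set did not follow the brighter, with a correlation of -0.47 over the 22 arrays. Its means ran from 1.32 to 2.61, it was called in no comparison, and at 12 h it read 0.51 higher than at 0 h. The fall of INHBB therefore rests on 1 of 2 probe sets.

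FST encodes follistatin. Its brightest probe set ran from 8.53 to 10.27 at 0 h, with a median of 9.50, and read 10.50, 9.79, 8.63 and 11.78 at 12 h. At 24 h it read 8.48, 9.54, 8.46 and 8.94, in unruptured follicles 7.32, 10.11, 8.85 and 8.74 and in ruptured follicles 10.94, 9.98, 10.30 and 10.84. Ruptured follicles all lay above the 24 h follicles and overlapped the unruptured ones through unruptured replicate 2 alone.

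Means of FST were 9.47 ± 0.58 (SD, n = 6) at 0 h, 10.17 ± 1.32 (n = 4) at 12 h, 8.86 ± 0.51 (n = 4) at 24 h, 8.75 ± 1.14 (n = 4) in unruptured and 10.51 ± 0.46 (n = 4) in ruptured follicles (F test, limma, adjusted p = 0.09). The ruptured level was 3.39-fold above the unruptured one and just missed the threshold (log2 1.76 ± 0.58 SE, limma, adjusted p = 0.0616), and without unruptured replicate 2 the difference was 2.21 with an adjusted p of 0.0243. It was also called with 16 added before log2 (0.0354) and with dim probe sets left out (0.0242). The other two probe sets gave 1.71 and 1.47 (adjusted p = 0.0619 and 0.0728, limma). Against 24 h the ruptured level was 1.66, 1.58 and 1.73 higher in the 3 probe sets, and only the dimmest was called (adjusted p = 0.035, limma), a call lost in 6 of the fits that left out a follicle. Probe sets of FST followed each other closely, with correlations of 0.95 to 0.98 over the 22 arrays.

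Because inhibin and activin share subunits and follistatin binds activin, the members were also compared within each array, a choice made after the values were seen. At 0 h the log2 intensity of FST minus that of INHBA averaged -1.87 ± 0.87 (SD, n = 6), and at 12 h it averaged 0.06 ± 0.64 (n = 4). The shift of 1.93 separated all 4 follicles from all 6, and the exact two-sided permutation test gave p = 0.00476, the smallest it can give, and 0.0286 after Benjamini-Hochberg adjustment over 12 comparisons. FST minus INHA shifted in the same direction, from -2.28 to -0.21 (shift 2.07, exact permutation p = 0.00476, adjusted 0.0286). Neither FST, INHBA nor INHA was called alone at 12 h, and both shifts use FST. They say only that the difference between the genes within a follicle was not the same in the 0 h and 12 h follicles.

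Before hCG INHBA minus INHA was -0.41 ± 0.26 (SD, n = 6), and 12 h after it -0.28 ± 0.91 (n = 4). It was -2.01 ± 0.53 (n = 4) at 24 h, -1.61 ± 1.30 (n = 4) in unruptured and 0.75 ± 0.50 (n = 4) in ruptured follicles. All ruptured follicles lay above all unruptured ones, with a difference of 2.36 (exact permutation p = 0.0286, the smallest that 4 against 4 can give, adjusted 0.0979). Apart from the shifts of FST at 12 h, none of the 12 comparisons passed after adjustment. With 4 follicles against 4 even full separation did not pass here. Such comparisons could hardly pass, so their failure to do so says little.

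**Figure D3:**
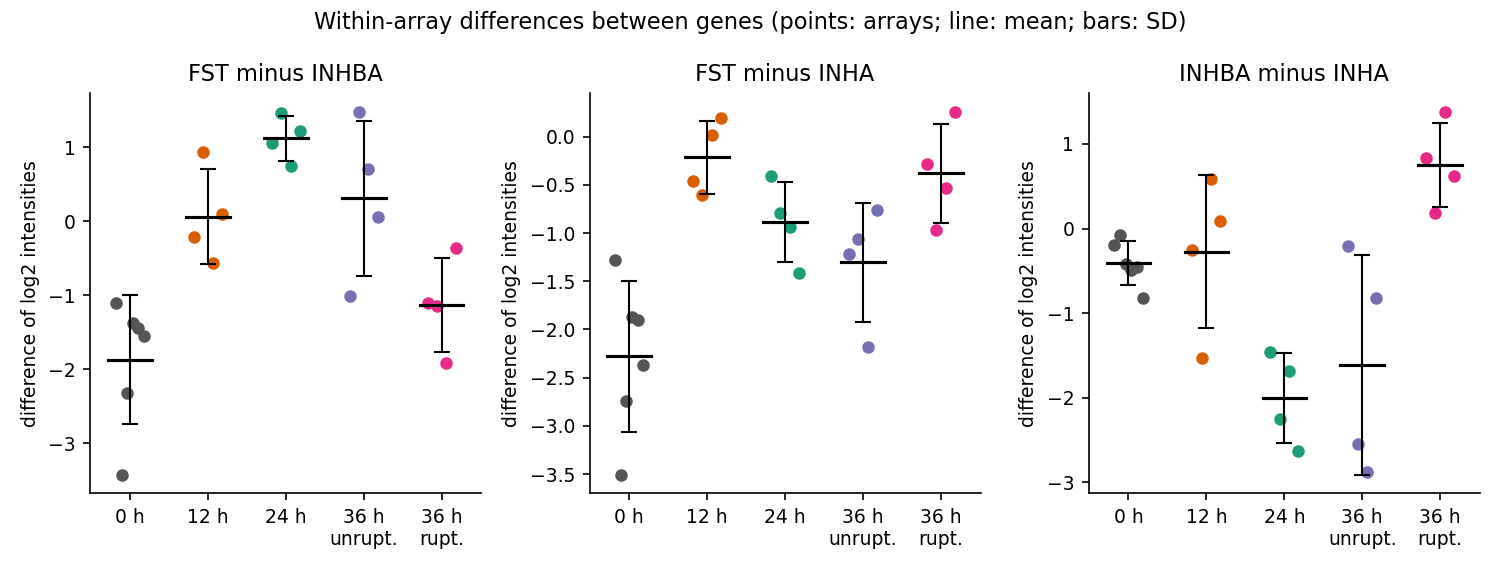
Difference of log2 intensities (vertical axis) between pairs of genes within each array for the 5 groups, with 1 point per array, a line at the mean and bars of 1 SD. FST minus INHBA rose from a mean of -1.87 at 0 h to 0.06 at 12 h, and INHBA minus INHA was highest in ruptured follicles, at 0.75.

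AMH was variable among follicles and was called in no comparison. At 0 h it ran from 4.09 to 8.87 with a median of 8.44, and 5 of the 6 follicles lay between 7.59 and 8.87. The 12 h follicles read 4.68, 6.66, 6.53 and 6.07, and the 24 h follicles 7.75, 7.45, 6.78 and 3.74. Unruptured follicles read 4.64, 7.48, 6.45 and 6.98, and ruptured ones 6.54, 5.07, 6.34 and 6.23. Apart from 0 h replicate 2, the 0 h follicles lay above all 12 h and all ruptured follicles.

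The means of AMH were 7.70 ± 1.82 (SD, n = 6) at 0 h, 5.99 ± 0.90 (n = 4) at 12 h, 6.43 ± 1.84 (n = 4) at 24 h, 6.39 ± 1.24 (n = 4) in unruptured and 6.04 ± 0.66 (n = 4) in ruptured follicles (F test, limma, adjusted p = 0.487). At 12 h the level was 3.27-fold below 0 h (log2 -1.71 ± 0.89 SE, limma, adjusted p = 0.28). Without 0 h replicate 2 the difference was -2.43 ± 0.71 SE (adjusted p = 0.0392, limma), and for ruptured follicles it moved from -1.65 (adjusted p = 0.251) to -2.37 (adjusted p = 0.0294). These values without a follicle describe how much it weighs and are not the test of the design.

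Most oocyte genes measured were also low in the 0 h follicle with little AMH. In 0 h replicate 2, ZP3, which encodes a protein of the oocyte's coat, read 4.82 against 7.84 to 9.04 in the other 0 h follicles, and FIGLA, an oocyte transcription factor, read 3.23 against 5.15 to 6.95. BMP15 (3.90) and DAZL (2.23) were lowest in it as well, but ZP4, at 8.38, was the highest at 0 h, and ZP1, at 2.02, was lower in replicate 4. Of 9 oocyte markers 6 were measured, and the log2 of their sum was lowest at 0 h in this follicle. The 24 h follicle with the lowest AMH was replicate 4. It was also the lowest of its group in ZP3 (6.2), FIGLA (3.91), BMP15 (1.46) and ZP1 (1.98). DAZL (5.3) and the oocyte marker sum (log2 8.7) were lower in 24 h replicate 1, and ZP4 (8.14) was highest in replicate 4. The macrophage and monocyte marker sum of 24 h replicate 4 was the highest of its group (log2 11.67). Whether these values bear on AMH was not tested.

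AMHR2 encodes the type II receptor that binds AMH. It ran from 6.66 to 7.36 at 0 h, with a median of 7.03, and read 5.52, 5.70, 5.80 and 5.30 at 12 h. The 24 h follicles read 6.40, 6.86, 7.07 and 5.55, unruptured ones 6.08, 7.00, 6.39 and 6.86 and ruptured ones 5.57, 5.41, 5.68 and 5.93. The 12 h and the ruptured follicles were low, without overlap with 0 h, and all but 1 of the 24 h and unruptured follicles lay above them, the exception being 24 h replicate 4.

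Means of AMHR2 were 6.98 ± 0.26 (SD, n = 6) at 0 h, 5.58 ± 0.22 (n = 4) at 12 h, 6.47 ± 0.67 (n = 4) at 24 h, 6.58 ± 0.42 (n = 4) in unruptured and 5.65 ± 0.22 (n = 4) in ruptured follicles (F test, limma, adjusted p = 0.00122). From 0 to 12 h the receptor gene fell 2.64-fold (log2 -1.40 ± 0.25 SE, limma, adjusted p = 0.00142), and ruptured follicles were 2.52-fold below 0 h (adjusted p = 0.000995, limma). In ruptured follicles the level was also 1.91-fold below that of unruptured ones (log2 -0.94 ± 0.27 SE, limma, adjusted p = 0.0343). That call was lost without unruptured replicate 2 or 4 or ruptured replicate 5, 6 or 7 (adjusted p of up to 0.107), and with these 2 groups fitted alone (0.0931, limma).

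At 24 h AMHR2 read 0.89 ± 0.27 SE (log2) above 12 h and just missed the threshold (limma, adjusted p = 0.0548). Without 24 h replicate 4, which also had the lowest AMH, the difference was 1.20 with an adjusted p of 0.00503. With all follicles kept it was called with 16 added before log2 (0.038), dim probe sets left out (0.0193) and array weights (0.033). The unruptured level was 2.00-fold above 12 h (adjusted p = 0.023, limma), a call lost in 4 of the fits that left out a follicle. In descending order the levels were 0 h, unruptured, 24 h, ruptured and 12 h, and no neighbours in this order were called. The 24 h and ruptured follicles came closest, with a difference of -0.83 (adjusted p = 0.0646, limma). It was called with 16 added before log2 (0.0451), dim probe sets left out (0.0248), array weights (0.0355) and without 24 h replicate 4 (-1.13, adjusted p = 0.00536, limma).

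Activins act through type II and type I receptors that phosphorylate SMAD2 and SMAD3, and AMH shares type I receptors and SMADs with bone morphogenetic proteins. Of the 9 activin receptor and SMAD genes, all were measured, and at 12 h 1 was called higher and 2 lower, with a median change of -0.21 beside 0 over all probe sets. The share of all probe sets called there was 9.33%. SMAD3 fell by 0.87 ± 0.12 SE (limma, adjusted p = 0.000225) and SMAD2 by 0.44 ± 0.10 SE (adjusted p = 0.00593). SMAD7, an inhibitory SMAD, rose by 0.81 (adjusted p = 0.0175, limma, and 0.0719 without 12 h replicate 2). In the next 2 steps 0 of 9 were called by their brightest probe sets (limma), with 6 and 2 at an unadjusted p under 0.05. Of all probe sets 6.88% and 0.00379% were called in these steps, and 1 dimmer SMAD3 probe set was called higher from 12 to 24 h. In ruptured against unruptured follicles 1 of 9 was called, against 9.82% of all probe sets. It was the type I receptor gene ACVR1B, lower by its brightest probe set (log2 -0.57, adjusted p = 0.0198, limma, lost in 4 of the fits that left out a follicle). The dimmer probe sets of ACVR1B were not called and reached a difference of 0.96. For SMAD3 the brightest probe set read -0.11 there, uncalled, while 2 of its 4 probe sets, both dimmer, were called higher.

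Among binding proteins and coreceptors, 4 of 5 were measured, and at 12 h 1 was higher and 1 lower (9.33% of all probe sets called), with a median change of -0.19. In ruptured against unruptured follicles 1 was higher and 1 lower (9.82% of all probe sets called), with a median of 0.19, beside -0.03 over all probe sets. BAMBI, a decoy receptor of the family, had a mean of 9.75 before hCG and means of 7.21 and 8.16 after 12 and 24 h, with 8.50 for unruptured and 7.68 for ruptured follicles. It fell from 0 to 12 h (log2 -2.53 ± 0.23 SE, limma, adjusted p = 3.61e-06), the same step in which AMHR2 fell. Its later steps of 0.95 (24 h against 12 h, adjusted p = 0.0252) and -0.82 (ruptured against unruptured, adjusted p = 0.0413, limma) were lost in 4 and 6 of the fits that left out a follicle.

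FSTL3, a follistatin-like protein that also binds activins, had means of 6.45, 7.25, 7.27, 7.48 and 9.12 from 0 h to ruptured follicles. It rose by 0.80 at 12 h (adjusted p = 0.00917, limma) and was 1.64 ± 0.20 SE higher in ruptured than in unruptured follicles (adjusted p = 7.38e-05). TGFBR3, or betaglycan, an inhibin coreceptor, lay between 10.95 and 11.39 in the group means and was called in none of the 4 successive comparisons.

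Of the type I receptor, SMAD and ID genes on the side of AMH, 6 of 10 were measured. At 12 h 1 was higher and 1 lower (median 0.05), at 24 h against 12 h 1 was higher (median 0.33), and in ruptured against unruptured follicles 1 was lower (median -0.32). Over all probe sets 9.33%, 6.88% and 9.82% were called in these comparisons, with medians of 0, 0 and -0.03. BMPR1B, a type I receptor gene, fell by 0.77 ± 0.18 SE at 12 h (adjusted p = 0.00886, limma), and the target gene ID1 rose by 1.09 (adjusted p = 0.0151, and 0.0744 with these 2 groups fitted alone). SMAD6, an inhibitory SMAD, was 1.56 ± 0.22 SE lower in ruptured than in unruptured follicles (log2 -1.56, adjusted p = 0.000248, limma). Its rise of 0.75 from 12 to 24 h (adjusted p = 0.0476, limma) was lost in 6 of the fits that left out a follicle.

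Of 4 proprotein convertases, enzymes that cut precursors of this family, 3 were measured and 2 rose at 12 h (median change 0.78). From 12 to 24 h 1 was lower, and in ruptured against unruptured follicles 1 was higher. The shares of all probe sets called in these comparisons were 9.33%, 6.88% and 9.82%. FURIN rose by 0.78 (adjusted p = 0.00102, limma) and PCSK7 by 0.99 (adjusted p = 0.00129). The convertase lower from 12 to 24 h was PCSK7 (log2 -0.66, adjusted p = 0.04, limma). That call was lost with the 12 h and 24 h follicles fitted alone (0.2, limma) and in most fits that left out a follicle. PCSK7 was also 0.74 higher in ruptured than in unruptured follicles (adjusted p = 0.0164, limma, and 0.051 without unruptured replicate 4 or 0.0517 without ruptured replicate 6).

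Of 12 transcription regulators known to act on member genes, 11 were measured, and at 12 h 1 was higher and 2 lower (median 0). From 12 to 24 h 1 was lower, and in ruptured against unruptured follicles 2 were higher (median 0.26). These counts stand beside 9.33%, 6.88% and 9.82% of all probe sets called. NR5A1, or SF-1, fell by 1.62 ± 0.21 SE (adjusted p = 0.000104, limma) and WT1 rose by 1.11 (adjusted p = 0.00559). GATA4 was the other lower gene (log2 -0.67, adjusted p = 0.0328, limma), a call lost in 8 of the fits that left out a follicle. The brightest NR5A2 probe set read -1.45 at 12 h and just missed the threshold (adjusted p = 0.0558, limma). It was called with 16 added before log2 (0.023), dim probe sets left out (0.0215) and array weights (0.0447). In the main fit 2 of the 3 NR5A2 probe sets, both dimmer, were called lower. In ruptured against unruptured follicles CREM, a factor of the cAMP response, was 1.93 ± 0.33 SE higher (adjusted p = 0.00096) and the estrogen receptor gene ESR2 1.63 ± 0.37 SE higher (adjusted p = 0.00879, limma). With these 2 groups fitted alone neither was called (adjusted p = 0.0727 and 0.123, limma). In the main fit only the brightest of 3 ESR2 probe sets was called, with differences from 0 to 1.63. For CREM 5 of 6 probe sets were called higher. CREM was also the gene lower from 12 to 24 h (log2 -1.12, adjusted p = 0.0456, limma). That call was lost with the 12 h and 24 h follicles fitted alone (0.0648, limma) and in most fits that left out a follicle. The gonadotropin receptor genes FSHR and LHCGR were not analysed here.

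**Figure D4:**
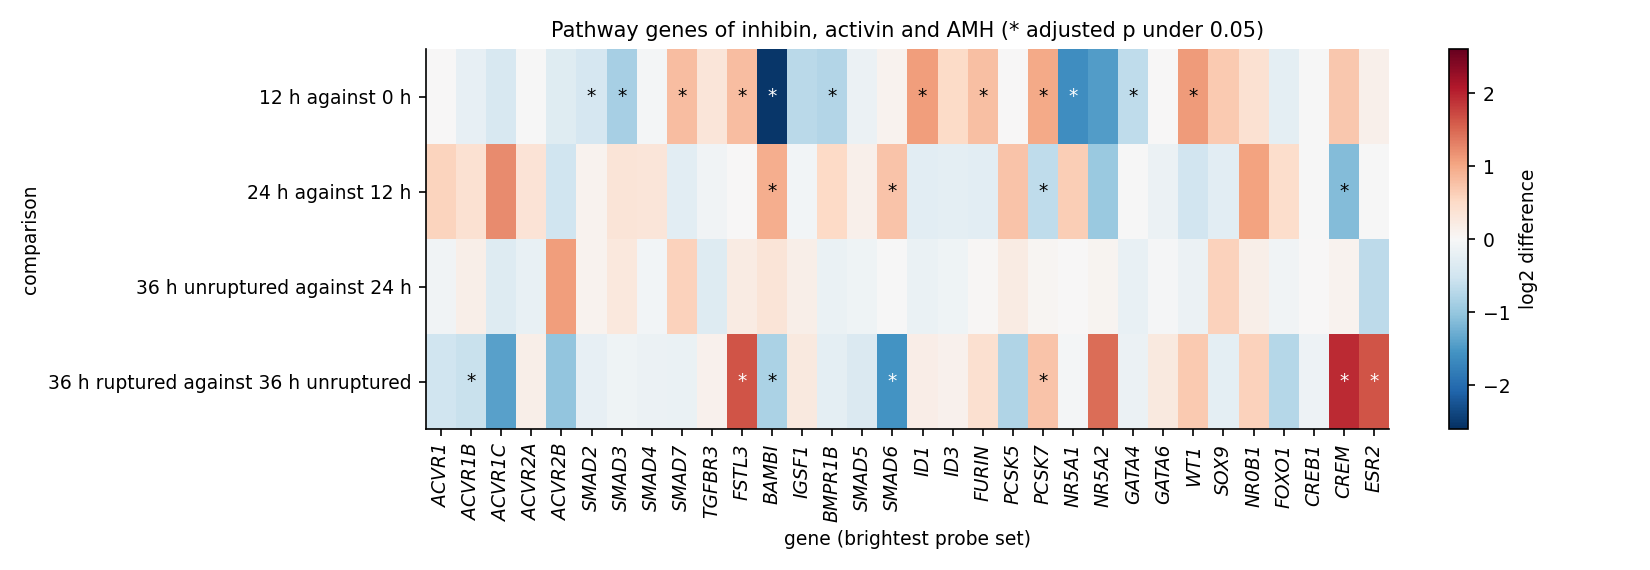
Colour shows the log2 difference of the brightest probe set of each measured pathway gene (horizontal axis) in the 4 successive comparisons (vertical axis), with asterisks at an adjusted p under 0.05. BAMBI, at -2.53 from 0 to 12 h, had the strongest fall shown, and FSTL3, CREM and ESR2 were higher in ruptured than in unruptured follicles.

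Patterns most like those of the members were ranked by Pearson's r over the 22 arrays, among genes at or above the median brightness, as a description. These correlations include the differences between groups. For INHA they were ME1, encoding malic enzyme, and FDXR, encoding ferredoxin reductase (both 0.89), NR5A2 (0.87), STARD4 (0.86) and PBX3 (0.83). For INHBA they were UBE2S and LTV1 (both 0.93), MITF (0.91), ST3GAL1 (0.90) and ALAS1, encoding the first enzyme of heme synthesis (0.88). FST was most like DCLRE1C (0.84), IGF1R and CEP170B (both 0.83), B4GALT2 and TET3 (both 0.82). AMH was most like OSGIN1 (0.89), SEC31B and MYCN (both 0.88), the oocyte gene NLRP4 (0.84) and COL4A4 (0.83). AMHR2 was most like ZC4H2 (0.92), MYZAP and ZNF711 (both 0.91), PEG3 (0.90) and GZMK (0.89).

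Deviations of each follicle from its group mean were used to ask which members vary together inside groups, and with which cell type markers, over 51 relations and with permutations inside groups (100000 resamples). INHBA followed the granulosa markers (Pearson's r = 0.73, permutation p = 0.00012, adjusted 0.00612, and Spearman's rho = 0.76, permutation p = 0.00072, adjusted 0.0349), and r was 0.67 without the 2 follicles farthest out. The brighter INHBB probe set followed them too (r = 0.67, permutation p = 0.00071, adjusted 0.0181, and rho = 0.64, permutation p = 0.00137, adjusted 0.0349), with r = 0.53 without the 2 farthest. The dimmer INHBB probe set was not among these relations, and inside groups it ran opposite to the brighter (r = -0.45). The remaining relations did not pass in r after adjustment, among them INHA with FST (r = 0.76, adjusted permutation p = 0.0542), AMH with AMHR2 (r = 0.68, 0.0542), AMH with oocyte markers (r = 0.64, 0.0729) and INHA with macrophage and monocyte markers (r = -0.58, 0.113).

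**Figure D5:**
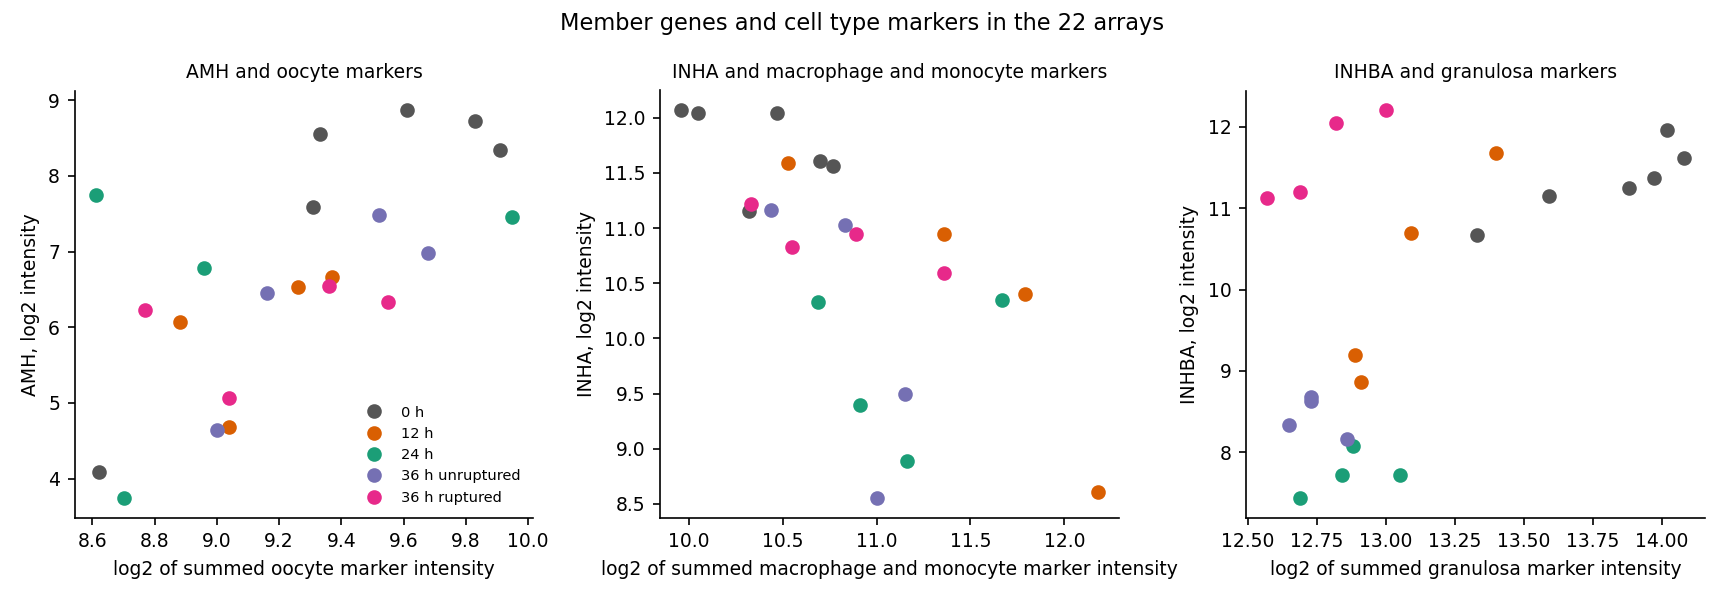
Log2 intensity of AMH, INHA and INHBA (vertical axes) against the log2 of the summed intensity of oocyte, macrophage and monocyte, and granulosa markers (horizontal axes), with 1 point per array coloured by group. Inside groups INHBA followed the granulosa markers (r = 0.73), while ruptured follicles combined high INHBA with low granulosa marker sums.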

How the data were processed

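RNA of 22 single follicles was measured on Affymetrix arrays. The deposited tables hold an intensity for each probe set on each array, made with RMA per the submitters' processing notes (version not given in the sources used here). They ran from 0.0361 to 15137, so log2 was taken here. No scan dates were given, and a batch could not be tested. The 99 control probe sets were left out. Of 52766 tested, 24956 had 1 symbol, 361 several and 27449 none. The 5 group means were fitted with limma 3.58.1 in R 4.3.3 (lmFit, eBayes, two-sided). The fit was tested on simulated data. The members and lists were chosen with earlier results of these data known. Every member probe set is described, other genes come from 6 pathway lists (at most 3 of the called genes per list and comparison, or a receptor or signal transducer), and the brightest probe set stands for such a gene. Replicate numbers were not used to pair follicles in the main fit. Deviations of 26 same-numbered pairs had a median correlation of -0.027, against 0 for 166 differently numbered pairs. This cannot show whether follicles of the same number shared an animal. No 2 arrays were identical. Alternatives are 16 added before log2, dim probe sets left out, quantile normalization, array weights, the 3' minus 5' index as a term of the fit, a replicate block, 2 groups alone and each follicle left out.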

Additional observations from a re-analysis of the deposited data

Results flagged for a closer look

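Dixon's gap test was applied to 50 groups (10 probe sets in 5 groups) and set 4 follicles apart, where chance sets apart about 1 in 20 groups. AMH in 0 h replicate 2 was 4.09, with the next follicle at 7.59. INHBB in 0 h replicate 4 was 1.95, with the next at 4.25, and in 24 h replicate 3 it was 3.87, with the next at 1.17. The dimmer INHBB probe set in ruptured replicate 6 read 1.37, with the next at 1.77.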

How the results depend on the processing

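The counts of member probe sets called moved with the processing as follows. The F test called 5, and 3 with the replicate block, 7 with 16 added or dim probe sets left out, 6 with array weights or the RNA quality index, and 4 to 8 when a follicle was left out. For 12 h against 0 h 2 were called, 3 with 16 added or array weights, and 2 to 4 without a follicle. For 24 h against 12 h 2 were called, 3 with 16 added, dim probe sets left out or array weights, 1 with the replicate block, 0 with the 2 groups alone (limma; 4 at an unadjusted p under 0.05) and 1 to 3 without a follicle. For ruptured against unruptured follicles 3 were called, 6 with 16 added, 6 with dim probe sets left out, 0 with the replicate block (limma; 3 at an unadjusted p under 0.05), 2 with the 2 groups alone and 2 to 5 without a follicle, and these groups share no replicate numbers. Against 0 h, unruptured follicles had 2, then 4 with 16 added, 3 with dim probe sets left out and 2 to 4 without a follicle. Ruptured follicles had 1, then 2 with 16 added, 0 with the replicate block (limma; 1 at an unadjusted p under 0.05), 3 with the 2 groups alone and 1 to 2 without a follicle. For 24 h against 0 h 3 were called, 4 with 16 added, 2 with the replicate block and 2 to 4 without a follicle. Quantile normalization changed none of these counts. Of 612 values of single members, 578 kept their side of the threshold and, where called, their direction, 13 lost a call, 21 gained one and 0 called values reversed, while 26 uncalled ones changed sign. Whether the replicate numbers pair follicles is not stated, and the cause of these shifts was not tested. Without detection calls, dim values, above all those of INHBB, limit what can be said.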
